A study of Schmidtea mediterranea with 6 samples.

Results

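The well-expressed transcripts that stood higher after lethal irradiation in whole bodies of the planarian Schmidtea mediterranea were 220 gene IDs among 36035. They were chosen on the measured levels. U is the mean level of the 3 unirradiated libraries and R the mean level of the 3 irradiated libraries, both in TPM, a level corrected for transcript length and library size. A gene ID was a member when R was 10 TPM or more, R/U was 1.6 or more, and the lowest of the irradiated libraries was above the highest of the unirradiated. Of 8659 IDs with R of 10 TPM or more, 2.86% reached the limit on R/U, 38.2% had groups that did not overlap with the irradiated libraries higher, and 2.54% met the whole rule. Because the rule used this contrast in all 6 libraries, the size and direction of each rise are descriptions of the choice and carry no test. The unirradiated animals were wild type (labelled WT), untreated and sampled at day 0, and the irradiated animals were wild type, lethally irradiated and sampled at day 3. The type and dose of radiation, the number of animals per library and their strain were not given in the sources used here. The treatment and the 3 days between the groups cannot be told apart.

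Planarians replace all their tissues from dividing stem cells, the neoblasts, which are the cells most sensitive to ionizing radiation. The differentiated cells do not divide and survive for a time after the stem cells are gone, so that an irradiated worm lives on before it degenerates. In a whole-body library each level is a share of the RNA that is left. More or fewer cells of a type and more or less RNA per cell cannot be told apart in it, and a transcript can gain share when others are lost. The IDs come without gene names, so no marker of a tissue or of neoblasts could be looked up, and no role is given here to any ID. What could be described is the level of each transcript in each library, the reads behind it, its effective length, and which IDs shared reads.

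The 6 libraries held 12635699 to 20914353 estimated counts, and the deepest library of each group was replicate 3. Total counts of the groups gave p = 0.5 in an exact two-sided permutation test, in which 3 libraries against 3 cannot go below 0.1. The labels do not state whether replicates are separate animals or cultures, so the spread between them may be technical. Across all 8659 IDs with R of 10 TPM or more the median R/U was 1.08, so a rise is best read against that value rather than against 1.

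Most of the rises were small. R/U lay between 1.6 and 3.38 with a median of 1.75, and 126 of the 220 members lay below 1.8. Another 48 lay between 1.8 and 2, 43 between 2 and 3, and 3 above 3. The members spanned the range of abundance. R was under 20 TPM for 98 of them, 20 to 50 TPM for 66, 50 to 100 TPM for 25, 100 to 1000 TPM for 29 and above 1000 TPM for 2. They made up 2.83% of all IDs in the lowest of these classes, 2.31%, 2.26% and 2.62% in the next 3, and 1.64% in the highest. Members were thus found in similar shares from the scarcer to the abundant transcripts. In unirradiated animals 91 of them lay below 10 TPM, the lowest at 4.24 TPM, and none of the members was absent there.

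**Figure D1:**
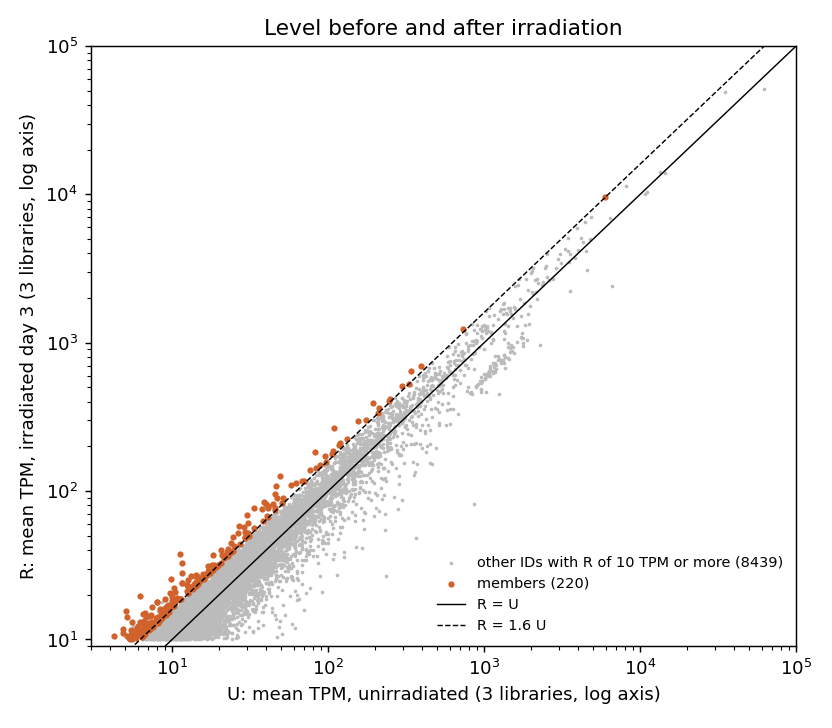
Mean TPM of each gene ID in 3 unirradiated libraries (horizontal) against 3 irradiated libraries (vertical), both on log axes, for IDs with R of 10 TPM or more. The 220 members (orange) form a band just above the dashed line of R = 1.6 U at every level, and only 3 of them lie above 3-fold.

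SMED30033239 had the highest R/U, 3.38. Its TPM was 14.5, 6.91 and 12.1 in unirradiated replicates 1 to 3 and 36.0, 39.5 and 38.1 in irradiated replicates 1 to 3. The irradiated libraries were close together and the unirradiated libraries were not, with replicate 2 at 0.519 of the mean of the others. These levels rested on 70.3 estimated counts per library on average. Over the summed counts of each group the ratio was 3.29, with an exact 95% interval of 2.63 to 4.16. The interval covers counting error only and makes no allowance for the choice of this ID as the highest.

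SMED30018653 had 3.74, 7.77 and 7.25 TPM in unirradiated and 11.5, 25.5 and 21.5 TPM in irradiated libraries. Irradiated replicate 1 stood well below the others, and the mean count was 31.2. SMED30026472 had 5.42, 3.53 and 6.17 TPM against 17.3, 16.2 and 13.0 TPM, on a mean count of 16.8. The 3 transcripts with R/U above 3 were therefore scarce in reads and short, with effective lengths of 0.179, 0.15 and 0.103 of the median ID. SMED30028825, with R/U of 2.47, rested on a mean count of 48.8 and went from 4.19, 3.1 and 5.43 TPM to 11.5, 12.5 and 7.43 TPM.

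Some other large rises rested on many more reads. SMED30027500 had 55.1, 48.4 and 44.4 TPM in unirradiated and 115, 126 and 139 TPM in irradiated libraries, an R/U of 2.57 on a mean count of 749. Each irradiated library held at least 2.08 times the highest unirradiated library. SMED30012684 went from 12.6, 9.40 and 12.5 TPM to 33.7, 32.4 and 32.6 TPM, an R/U of 2.86. Its groups were the farthest apart of all members, the lowest irradiated library being 2.57 times the highest unirradiated library. SMED30015992 went from 10.9, 10 and 8.82 TPM to 27.1, 24.2 and 25.5 TPM, an R/U of 2.59. SMED30030068 went from 6.48, 3.28 and 5.55 TPM to 16.2, 12.7 and 13.5 TPM, an R/U of 2.77, but on a mean count of only 33.1. The last 3 IDs divided their reads with further members, as described below.

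The most abundant member was SMED30014570. It had 6146, 6349 and 5454 TPM in unirradiated and 8887, 10022 and 9849 TPM in irradiated libraries, and ranked 10th and 8th among all IDs in the mean level of each group. Its R/U of 1.6 lay just inside the threshold, and its groups were clearly apart. It was also the member with the shortest effective length, 0.0315 of the median ID, so that this TPM stood for a mean count of only 3938. Its effective length was 1.03 times as long in irradiated as in unirradiated libraries. The ratio of its summed counts was 1.66 (exact 95% interval 1.61 to 1.7, counting error only, with no allowance for the choice by the rule).

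SMED30032042 was next, with 725, 768 and 714 TPM before and 1150, 1176 and 1400 TPM after irradiation, an R/U of 1.69. SMED30022147 had 371, 427 and 389 TPM against 755, 672 and 647 TPM, an R/U of 1.75. SMED30019945 had 313, 350 and 362 TPM against 596, 650 and 697 TPM, an R/U of 1.90. In each of these 3 the groups were well apart. SMED30032211 had 376, 297 and 311 TPM against 574, 508 and 493 TPM, an R/U of 1.6. SMED30022805 had 307, 303 and 279 TPM against 531, 446 and 559 TPM, an R/U of 1.73.

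**Figure D2:**
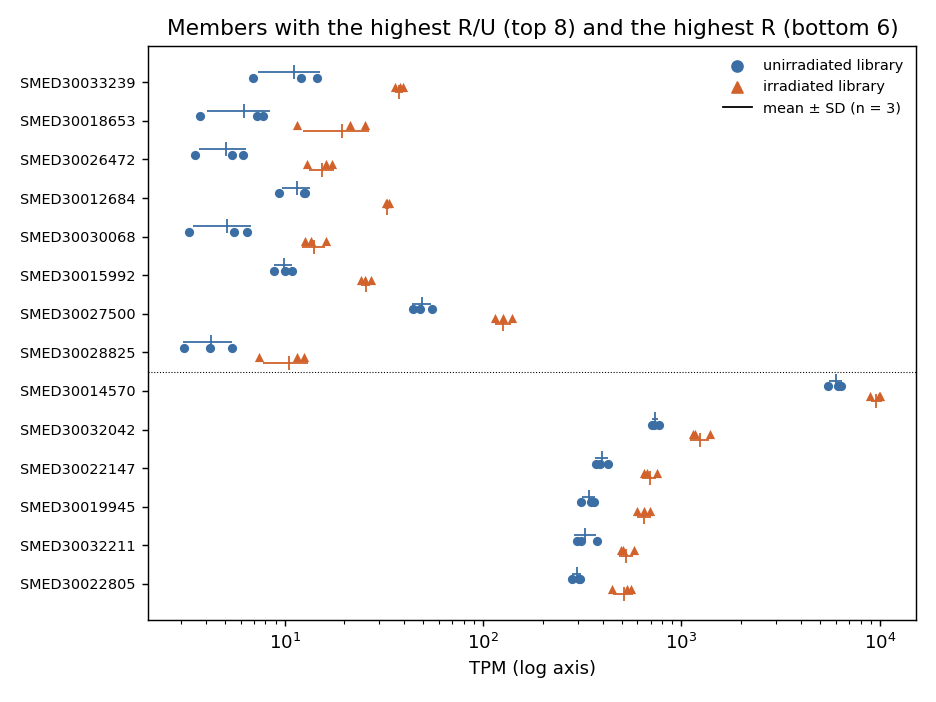
TPM of the 8 members with the highest R/U (above the dotted line) and the 6 with the highest R (below it), on a log axis, with unirradiated libraries as blue circles, irradiated libraries as orange triangles and bars for the mean ± SD (n = 3). Several of the scarcer members at the top are spread widely within a group, while the abundant members at the bottom are closer together, as in SMED30032042 with 714 to 768 TPM before and 1150 to 1400 TPM after irradiation.

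The longest member contributed the most reads. SMED30020726, singled out after its values were seen, had an effective length 13.9 times that of the median ID and 72119 estimated counts per library on average. It had 219, 257 and 262 TPM in unirradiated and 418, 435 and 353 TPM in irradiated libraries. Its share of all counts was 0.368 ± 0.032% before and 0.589 ± 0.061% after irradiation (SD, n = 3). All members together held 1.39 ± 0.06% of the TPM before and 2.37 ± 0.07% after (SD, n = 3). Without SMED30014570 these shares were 0.791 ± 0.021% and 1.41 ± 0.04% (SD, n = 3), so that one short transcript made up a large part of the total.

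Many members lay close to the limits of the rule. R/U was below 1.7 for 86 members, and 195 further IDs with groups that did not overlap lay between 1.5 and 1.6. Just inside, SMED30012979 had 9.02, 4.83 and 10.4 TPM against 15.2, 10.8 and 12.9 TPM, an R/U of 1.6. Just outside, SMED30024289 had 4.56, 5.93 and 8.79 TPM against 11.1, 9.98 and 9.64 TPM, with R/U at 1.597. SMED30023730 had 26.8, 15.2 and 15.8 TPM against 28.5, 35.1 and 28.6 TPM, with R/U at 1.596. SMED30020420 had 106, 85.8 and 90.7 TPM against 149, 136 and 166 TPM, also with R/U at 1.596. The other members nearest the threshold were SMED30032211 and SMED30014570, whose R of 525 and 9586 TPM was far above that of the 3 IDs just outside, at 10.3, 30.7 and 150 TPM. Another 28 IDs passed the limits on R and R/U but had groups that overlapped, and 15 of those had mean counts under 20.

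Some members had estimated counts that were not whole numbers, as arise when a read that matches several transcripts is divided among them. How the authors' software did this is not stated, and the reading of such counts as shared reads was chosen after seeing the data. This applied in at least one library to 56 members, or 25.5%, against 10.9% of the other 8439 IDs with R of 10 TPM or more. Where reads are divided within a closed set of IDs and with no other ID, the counts of the set add up to whole numbers in every library. A search for such sets, at a tolerance of 1e-04 of a count, placed 29 of the 56 members in 17 sets. In 5 sets every ID was a member, 16 IDs in all. The reads of one such set are shared, so its IDs are not independent cases of a rise. Counting each set once, the 220 members came down to 208 units.

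The largest of these sets held 5 IDs, SMED30005940, SMED30012684, SMED30015992, SMED30018515 and SMED30019249. Their summed counts were whole in every library, at 1009, 865 and 1391 in unirradiated and 1915, 2068 and 3278 in irradiated libraries. Scaled to library totals, the set went from 70.2 ± 6.2 to 161 ± 10 CPM (counts relative to the library total) (SD, n = 3), a ratio of 2.30. The 5 IDs had similar effective lengths, 0.604 to 0.729 of the median ID, and R/U of 2, 2.86, 2.59, 2.18 and 2.31 in the order named. SMED30018515 went from 42.5, 39.3 and 35.3 TPM to 83.5, 83.7 and 87.7 TPM, and SMED30019249 from 35.5, 32.2 and 32.6 TPM to 65.8, 83.6 and 82.7 TPM. These 2 IDs took 36.0% and 34.2% of the counts of the set before irradiation and 33.6% and 33.8% after. SMED30012684 went from 11.9% to 14.5%, SMED30015992 from 11% to 12.2% and SMED30005940 from 6.9% to 5.9%. The 2 IDs with the highest R/U thus took a larger part of the set after irradiation, and the other 3 a smaller part.

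A pair, SMED30003962 and SMED30019945, held the most reads of the sets made up of members. Its summed counts were 4290, 4555 and 8035 in unirradiated and 8922, 9286 and 15578 in irradiated libraries. In CPM it went from 355 ± 28 to 748 ± 53 (SD, n = 3), a ratio of 2.11. SMED30003962 went from 100, 105 and 121 TPM to 254, 256 and 286 TPM, an R/U of 2.44. Its effective length was 1.38 times that of the median ID, against 0.528 for SMED30019945. The division of reads shifted, since SMED30003962 took 45.5% of the counts of the pair before and 51.8% after irradiation.

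A set of 3, SMED30000090, SMED30016546 and SMED30030068, went from 48.9 ± 4.3 to 97.0 ± 13.5 CPM (SD, n = 3), a ratio of 1.98. SMED30000090 went from 46.2, 34.7 and 32.1 TPM to 75.3, 60.2 and 92.2 TPM, and SMED30016546 from 22.8, 25.8 and 25.3 TPM to 49.2, 45.3 and 51.7 TPM. The high R/U of SMED30030068 came from an ID that held only 2.41% of the counts of this set before irradiation and 3.32% after.

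The pair SMED30009873 and SMED30026267 went from 169 ± 4 to 329 ± 22 CPM (SD, n = 3), a ratio of 1.94. SMED30009873 had 153, 147 and 165 TPM before and 294, 294 and 308 TPM after irradiation, and SMED30026267 had 194, 195 and 189 TPM before and 355, 452 and 371 TPM after. The 2 IDs had similar lengths, 0.478 and 0.433 of the median ID, and divided the reads almost evenly in both groups. The fifth set held SMED30016052, SMED30017683, SMED30026708 and SMED30030653, with R/U between 1.73 and 1.83. It went from 64.7 ± 8.1 to 113 ± 13 CPM (SD, n = 3), a ratio of 1.75. In none of these 5 sets did the summed CPM overlap between the groups. The rule required this of each of their IDs in TPM, so nothing is read from it.

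In the other 12 sets the members shared reads with IDs outside the list. In 4 of the 12 the summed counts rose by 1.6-fold or more in CPM, and in the other 8 by less. The limit of the rule was on TPM, so these ratios are not strictly held to it. The pair of SMED30034296 and SMED30017123 came near, at 1.57 in CPM, and the member SMED30034296 had an R/U of 1.61 in TPM. Of the 14 partners, 13 had R/U above 1, over a range of 0.845 to 2.86. The median R/U of all IDs with R of 10 TPM or more was 1.08. In single pairs of libraries 59.7% to 62.1% of such IDs had a ratio above 1, so nothing is read from the count of partners. One contrast within a pair was that of SMED30024649, which went from 4.86, 5.96 and 3.69 TPM to 15.6, 8.25 and 9.40 TPM, an R/U of 2.29. Its partner SMED30019407 had an R/U of 1.08. The counts of the pair were 104, 68 and 115 before and 112, 100 and 153 after irradiation, and in CPM the groups overlapped. In a set of 3, SMED30031124 had an R/U of 1.81, and its partner SMED30015098 had the R/U of 0.845, the only partner below 1. Overlap of the summed counts was also seen for SMED30030281, whose pair with SMED30026337 had a ratio of 1.15 and in which the member took only 1.90% of the counts before irradiation and 2.77% after. Among all 81 closed pairs of the series in which both IDs had R of 10 TPM or more, 2 pairs held 2 members and 6 held 1 member. The remaining 27 members with counts that were not whole fell in no closed set of the sizes searched.

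**Figure D3:**
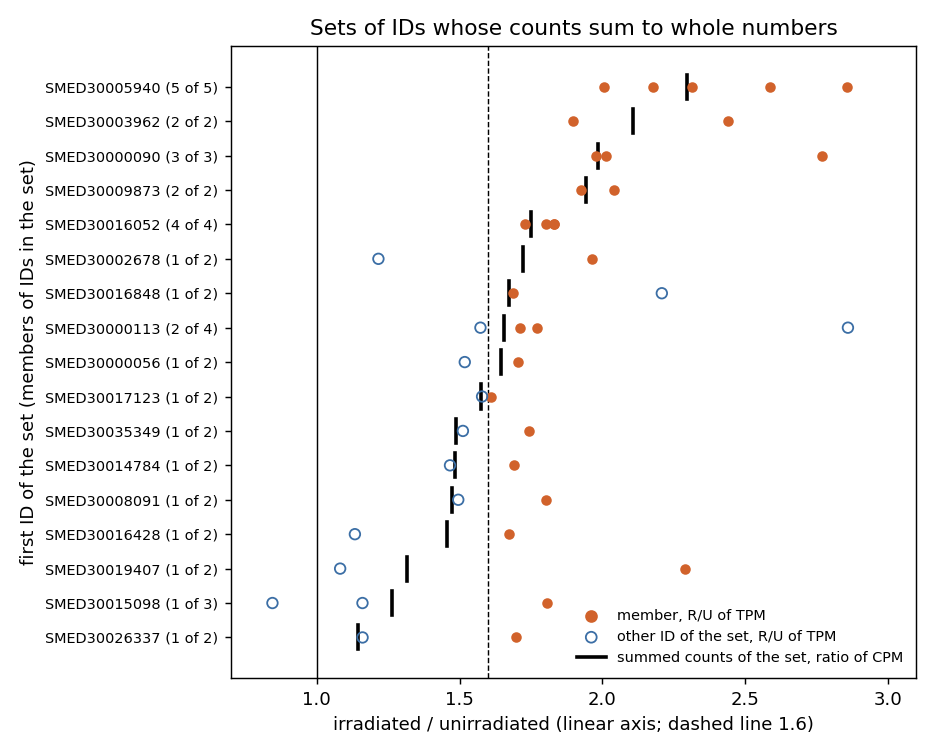
Ratio of irradiated to unirradiated level (linear axis) in the 17 sets of IDs whose estimated counts sum to whole numbers in all 6 libraries, with members as filled orange circles, other IDs of the set as open blue circles and the summed counts of the set as black bars. The circles are ratios of TPM and the bars ratios of CPM. In the top 5 sets every ID is a member and the bars lie between 1.75 and 2.30, while 8 of the other 12 bars lie below the dashed line at 1.6.

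Members tended to be short. The effective length of an ID relative to the median ID was taken from the ratio of its count to its TPM. The median was 0.471 over the members and 1.20 over the other IDs with R of 10 TPM or more. Of the members 34.5% were shorter than 0.25 of the median ID, against 10.7% of the others, and 8.18% were longer than 2 times the median ID, against 26.4%. Read the other way, members were 7.76% of well-expressed IDs in the shortest class (76 of 980) and 0.803% in the longest (18 of 2242). The share fell at each step between, from 3.63% to 3.18% and 1.22%.

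A short transcript reaches a given TPM on fewer reads, and the number of reads moved with length. The median mean count of members was 36.3 in the shortest class and 959 in the longest, and their median R/U was 1.82 and 1.66. Among IDs with a mean count of 200 or more, members were 4.85% of the shortest class (11 of 227), 1.95%, 2.48% and 1.13% of the next 3, and 0.803% of the longest. The median length in that subset was 0.921 over members and 1.5 over the others. An excess of short IDs was thus present where reads were plentiful, at 4.85% in the shortest class against 1.47% of all 6882 such IDs. Without the limit on counts these shares were 7.76% and 2.54%. The difference between the median lengths of members and others was smaller in the subset. The part that counting error had in the excess was not tested. Across all IDs with R of 10 TPM or more in the shortest class, members or not, the median R/U was 1.16. It was 1.01 to 1.08 in the other classes. The limit of 10 TPM was set on R alone, which by itself favours a higher R/U where reads are few. The size of that effect was not tested.

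**Figure D4:**
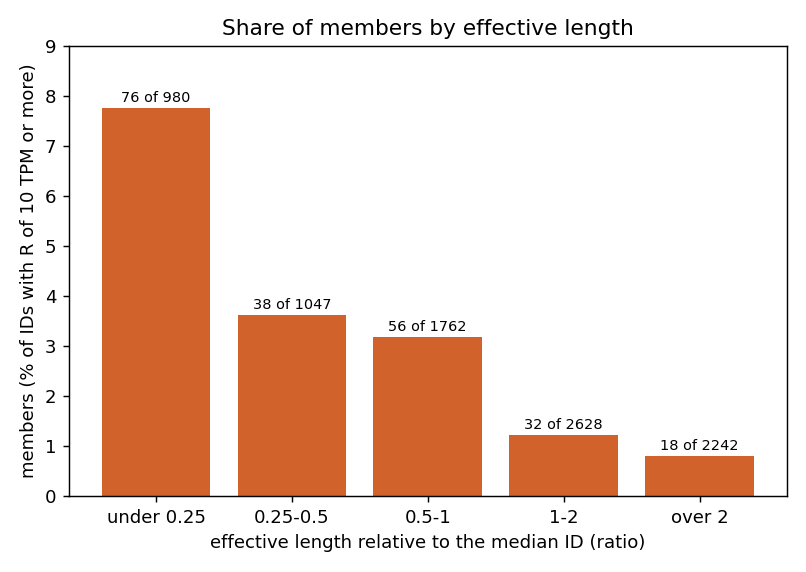
Members as a percentage of all IDs with R of 10 TPM or more in 5 classes of effective length, given relative to the median ID, with the numbers of IDs above the bars. The share goes from 7.76% in the shortest class to 0.803% in the longest.

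Effective lengths themselves were steady between the groups. The ratio of the irradiated to the unirradiated length of a member lay between 0.990 and 1.04, with a median of 1, so differences in length hardly moved R/U. The largest shortening was in SMED30017762, which went from 84.8, 74.0 and 88.0 TPM to 171, 184 and 192 TPM, an R/U of 2.22. SMED30011881 followed, with 16.8, 15.6 and 18.5 TPM against 28.1, 26.9 and 31.3 TPM. The largest lengthening was in SMED30025645, at 1.04, which had 10.9, 11.3 and 12.4 TPM against 13.7, 55.5 and 15.5 TPM. Its R/U of 2.45 rested on irradiated replicate 2, and was 1.27 without that library. It was the only member whose R/U moved by more than 1.5 times when a single library was left out, and its mean count was 9.81.

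The members varied more between replicates than other well-expressed transcripts did. The coefficient of variation of TPM (SD as a percentage of the mean, n = 3) had a median of 11.3% in unirradiated and 10.8% in irradiated libraries over the members, against 5.71% and 6.26% over the other IDs. Members also had fewer reads, with a median mean count of 160 against 561. The highest unirradiated library was replicate 1 for 90 members, replicate 2 for 60 and replicate 3 for 70. Over the other 8439 IDs these numbers were 2572, 2510 and 3357. The highest irradiated library was replicate 1 for 75 members, replicate 2 for 53 and replicate 3 for 92. Over the other IDs these numbers were 2600, 2123 and 3716, so irradiated replicate 3 was most often the highest in both. The lowest unirradiated library was replicate 1 for 66 members, replicate 2 for 70 and replicate 3 for 84. Over the other IDs these numbers were 3023, 2990 and 2426. R/U stayed at 1.6 or more for 128 of the 220 members whichever single library was left out, and fell below it for the rest in at least 1 case. The median ratio of the lowest irradiated to the highest unirradiated library was 1.43. It was 1.6 or more for 38 members and 1.5 or more for 77. The narrowest were SMED30016748, with 12.2, 17.9 and 12.5 TPM against 18.1, 25.5 and 29.3 TPM, and SMED30001414, with 13.9, 8.99 and 7.88 TPM against 14.2, 18.0 and 21.4 TPM.

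A few well-covered members had 1 low unirradiated library, which by itself raises R/U and so favours membership. Among the 163 members with a mean count of 50 or more, 4 had a level in unirradiated replicate 3 under 0.6 of the mean of the other 2 libraries. In unirradiated replicate 2 this held for 2 members, SMED30013402 and SMED30033239, and in unirradiated replicate 1 for none. SMED30018686 had 15.5, 16.0 and 7.90 TPM, and SMED30005177 had 9.71, 11.5 and 5.87 TPM. Both belonged to the same set of 4 IDs that shared reads, whose summed counts were 177, 184 and 106 CPM in unirradiated and 281, 236 and 255 in irradiated libraries. SMED30034869, in another set, had 110, 104 and 52.4 TPM, and SMED30019619, with whole counts, had 15.6, 19.9 and 7.67 TPM. The irradiated libraries of these 4 IDs lay above all their unirradiated libraries as the rule required. Among the other well-expressed IDs with such counts, 0.186% were as low in replicate 3 and 0.112% in replicate 2, and nothing is read from the difference because the rule favours it.

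The rule was also applied to fewer libraries, which gave other lists than the 220 members. It was applied to 4 libraries, leaving out the libraries of one replicate number in both groups, and the ratio of the left-out pair was then read. Equal numbers are not known to mark a shared origin, so a pair is only 1 irradiated and 1 unirradiated library. With replicate 1 left out, 290 IDs met the rule, 177 of them members, with a median R/U of 1.76 in the 4 libraries and a median ratio of 1.53 in the left-out pair. With replicate 2 left out, 316 IDs, 187 of them members, had medians of 1.76 and 1.52. With replicate 3 left out, 277 IDs, 175 of them members, had medians of 1.75 and 1.57. The left-out ratio was above 1 for 89.7%, 89.6% and 91.0% of these IDs, against 60.6%, 59.7% and 62.1% of all IDs with R of 10 TPM or more. It reached 1.6 for 40.7%, 38.6% and 47.3%, against 4.45%, 3.88% and 5.81%. The median ratio was smaller in the left-out pair than in the libraries used for the choice in each case. These values describe the 3 lists and are no test of the rise of the 220 members, which were chosen on all 6 libraries.

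The drop in the median was greater where reads were few. For IDs with a mean count under 50 in the 4 libraries, the median R/U of 1.87, 1.91 and 1.92 became 1.3, 1.34 and 1.38 in the left-out pair. For IDs with 50 counts or more, the median R/U of 1.73, 1.72 and 1.7 became 1.55, 1.53 and 1.61. The left-out ratio was above 1 for 75.3%, 74.7% and 84.0% of the first and for 95.2%, 94.8% and 94.5% of the second. Over all IDs with R of 10 TPM or more, not split by count, it was 60.6%, 59.7% and 62.1%. The 3 lists share many IDs, so they are not separate cases.

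**Figure D5:**
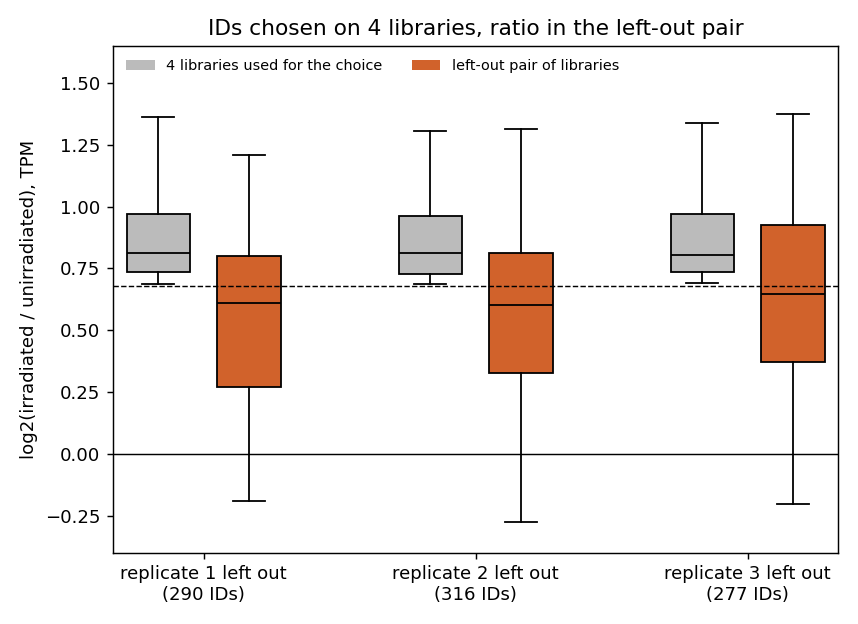
Log2 ratio of irradiated to unirradiated TPM for IDs that met the rule in 4 libraries, in those 4 libraries (grey) and in the left-out pair (orange), with boxes for the quartiles, a line for the median and whiskers from the 5th to the 95th percentile. Medians in the left-out pairs correspond to ratios of 1.53, 1.52 and 1.57, below the dashed line at 1.6 and above the line at no change (2 left-out ratios that were 0 or had no value are not drawn).

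In edgeR's quasi-likelihood test across 20378 IDs, 197 of the 217 members tested were called higher at an adjusted p below 0.05, and 14.9% of all IDs tested were. The rule used this contrast, so nothing is read from that count. The 20 members tested but not called had mean counts of 11.7 to 39.0, and every member with a mean count of 50 or more was called. The choice by the rule bears on these calls too, so nothing is read from them about the members. Too few counts for the test were found in 3 members, SMED30025645, SMED30011918 and SMED30016283. The median log2 fold change was 0.74 over the members and 0.01 over all IDs tested. Among all 8659 IDs with R of 10 TPM or more, 1991 were called higher. The members were 9.89% of those 1991, and the other IDs called higher at this level did not meet the rule.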

How the data were processed

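Libraries were made from whole-body total RNA extracted with TRIGene reagent, per the labels' protocols. Estimated counts and TPM were deposited by the authors as 2 tables over the same gene IDs. The software, transcript set, genome build and strand setting behind them were not stated in any label or header, and no sequence or gene name was used. Totals of 12635699 to 20914353 estimated counts per library limit the precision of scarce IDs. The rule was applied to the deposited TPM. Estimated counts were rounded and fitted with edgeR 4.0.16 (R 4.3.3) after its default filter (minimum count 10), with TMM scaling, the quasi-likelihood F test and Benjamini-Hochberg adjustment over all IDs tested (threshold 0.05). The procedures were tested on simulated data. A count was taken as whole within 1e-06. Pairs in which both IDs were not whole in at least 3 libraries were searched over all IDs. Sets of 3 or 4 were searched around a member, and larger ones, up to 7, among members, alone or with a single other ID. No pair of replicates agreed within sampling noise (chi-square per degree of freedom 2.55 to 5.26).

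The members were chosen, and the tests fixed, with earlier results of these data known. Named members were the 8 with the highest R/U, the 6 with the highest R, the 4 with the highest U, the 3 nearest each side of 1.6, and the 2 at each extreme of the gap between groups and of the change in length. IDs in closed sets and those with 1 low library were chosen after their values were seen. Marker and pathway lists had been fixed by name, and no ID could be matched to them.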

Additional observations from a re-analysis of the deposited data

How the results depend on the processing

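The log2 fold changes of the named members and the medians kept their sign in the settings in which they were refitted. A kept sign was all but fixed by the rule, which put every irradiated library above every unirradiated one, so nothing is read from it. Other members were not followed one by one. The count of members depended on the cutoffs. It was 101 with CPM and TMM scaling in place of TPM, of which 76 were among the 220 (the cause was not tested). It was 382 and 122 with R of 5 and 20 TPM or more, 1330 with no minimum R, and 415 and 46 with R/U of 1.5 and 2 or more. TPM scaled by the median of ratios gave 156, all among the 220. Leaving out a library, or a replicate number in both groups, gave 241 to 316 IDs under the rule, of which 175 to 196 were among the 220. Leaving out single libraries gave 180 to 187 members called higher, 2376 to 2812 IDs called higher in all and median log2 fold changes of 0.73 to 0.77, and leaving out single irradiated libraries gave 2.34% to 2.41% of irradiated TPM. The median log2 fold change of the members, 0.74, became 0.81 with upper-quartile scaling, 0.79 with library totals only and 0.81 with limma on log2(TPM + 0.1). The members' 2.37% of irradiated TPM became 1.52% of counts, 1.98% over IDs with whole counts and 1.41% without SMED30014570, a setting chosen after seeing the data. DESeq2 1.42.0 called 174 members higher, and 2390 of all 33483 IDs fitted. For limma 3.58.1 on log2(TPM + 1) these numbers were 209, and 3344 of 20378. With the counts of closed sets summed, also chosen after seeing the data, 183 of 205 units that held members were called. In that setting 3207 of all 19911 units were called higher. The rule used this contrast, so nothing is read from these counts of members. The replicate number as a block gave 193 members and 2856 IDs higher, with a median of 0.75. Between groups, deviations from the group mean had correlations of -0.06, 0.05 and -0.08 for numbers 1, 2 and 3, so the numbers were not taken as pairs. SMED30016748 lost its call without unirradiated replicate 1, unirradiated replicate 3 or irradiated replicate 3, at log2 fold changes of 0.68, 0.65 and 0.61 against 0.75. SMED30001414 lost its call without unirradiated replicate 3 or irradiated replicate 3, at 0.6 and 0.65 against 0.79. The log2 fold change of SMED30012979, 0.58, fell further, to 0.34 without unirradiated replicate 2 and 0.46 without irradiated replicate 1. It was 0.61 to 0.83 without any of the other libraries. Counts under 50 limited the precision of 57 members.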
